A study of Mus musculus with 20 samples.

Results

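Loss of Bcor alone was examined in LSK cells, the Lin-Sca1+Kit+ fraction of mouse bone marrow that holds the stem cells and the earliest multipotent progenitors. Of the 20 RNA libraries of the series, 5 entered the comparison, 2 labelled Bcor-/- and 3 labelled wild type (WT). Of 24315 genes in the LSK table, 11597 had a mean of at least 1 FPKM (a read density scaled to transcript length and library size) over these 5 libraries and were tested, and 8224 were at 0 in all 5. The series covers WT, Bcor-/-, Dnmt3a-/- and Bcor-/-Dnmt3a-/- mice, each in LSK cells and in MEP cells, the megakaryocyte-erythroid progenitors.

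All mice were C57BL/6. The conditional Bcor allele loses exons 8 to 10 through Mx1-Cre, an interferon-inducible recombinase that the study switched on with pIpC, and Cre acts wherever the Mx1 promoter is active, so the cell in which Bcor was lost is not fixed by the model. Bcor is X-linked, and Bcor-/- stands for homozygous females and hemizygous males. The Y-linked genes Ddx3y, Eif2s3y, Kdm5d and Uty were detected in all 5 libraries, and Xist was below the filter. For the mice sequenced here, whether WT carried Cre or received pIpC, and how old they were when LSK cells were sorted, is not given in the sources used here. Bcor-/- replicate 1 names 2 mice and is treated as a pool. The WT library names share a prefix with the Dnmt3a-/- libraries that the Bcor-/- libraries lack. What the prefix stands for is not given, so genotype and whatever it marks cannot be told apart.

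BCOR is a scaffold of PRC1.1, a variant Polycomb complex that binds unmethylated CpG islands through KDM2B and places ubiquitin on histone H2A, a mark tied to gene silencing. In the blood system Polycomb complexes hold back lineage and developmental genes in stem cells, and loss of BCOR is found in human myeloid neoplasms. LSK cells express low levels of genes from several lineages at once. Granulocyte, erythroid and lymphoid branches later raise their own genes under C/EBP factors, GATA1 with KLF1, and lymphoid regulators, while stem cell genes are shut down.

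The deleted gene was lower but still read. Bcor stood at 22.4 and 23.2 FPKM in the Bcor-/- libraries and at 32.4, 31.1 and 29.5 FPKM in WT. The groups did not overlap, and the log2 fold change was -0.43 ± 0.09 (SE, limma adjusted p = 0.022), short of the 1.5-fold threshold. FPKM covers the whole transcript, most of which lies outside the deleted exons, and does not show whether those exons were read. The study did not detect Bcor mRNA by PCR in LSK cells of its Bcor-/- mice. It also reports loss of the protein in Lin- marrow cells. The study describes the transcript left by the deletion as unstable, so the gene-level value does not settle how complete the loss was in these libraries. Dnmt3a, intact in both groups, had a log2 fold change of -0.31 (adjusted p = 0.11).

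Bcor-/- LSK cells showed 948 genes higher (8.17% of those tested) and 961 lower (8.29%) than WT at an unadjusted limma p under 0.05 with a fold change over 1.5, the thresholds of the study. With the adjusted p in its place, 817 (7.04%) and 708 (6.11%) were called. More increases than decreases passed 2-fold, 363 of the higher genes against 225 of the lower genes. Over all tested genes the log2 fold change had a median of -0.00371. Groups did not overlap for 942 of the 948 higher and 952 of the 961 lower genes, as the call itself nearly requires.

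**Figure D1:**
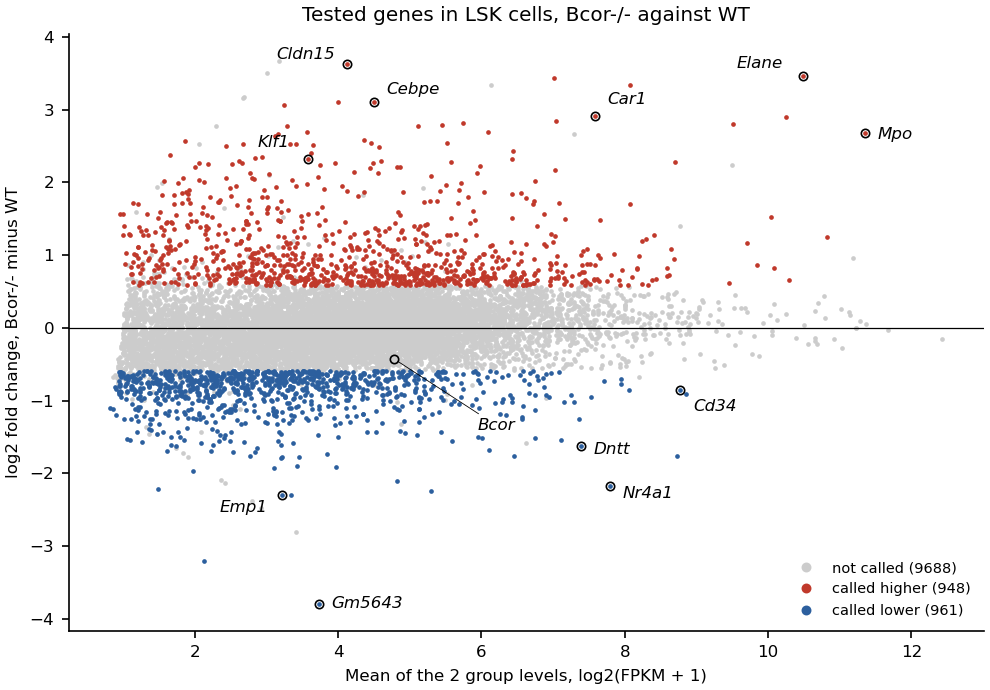
Log2 fold change (Bcor-/- minus WT) of each of the 11597 tested genes against the mean of the 2 group levels in log2(FPKM + 1); red points were called higher (948), blue points lower (961). Granule genes such as Elane and Mpo pair a large increase with a high level, whereas Bcor lies just below 0 and is not called.

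Several properties of the 5 libraries bear on these calls. The 2 Bcor-/- libraries correlated at r = 0.977 across genes and the WT libraries at 0.971 to 0.976, and Bcor-/- against WT pairs ran from 0.923 to 0.964. Bcor-/- replicate 2 lay farther from WT than replicate 1 for 84.9% of the higher and 80.9% of the lower genes. Without it, and with the lone replicate 1 assumed to vary like WT, 734 higher and 594 lower genes were called, and 10 in all passed the adjusted p. Relative depth, read from the steps between low values, was 1.13 and 1.32 in Bcor-/- against 0.79 to 1 in WT. WT replicate 2 stood apart in late neutrophil genes, and WT replicate 1 in immediate early genes, as given with those lists. Among the genes of the sorting gate, Kit was at 118 and 123 FPKM in Bcor-/- and at 164, 148 and 174 FPKM in WT. Ly6a, which encodes Sca1, was at 107 and 31.1 FPKM in Bcor-/- and at 66.0, 70.7 and 59.8 FPKM in WT, so the 2 Bcor-/- libraries lay on both sides of WT. Cd3e and Cd8a were below the filter.

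Genes of early granulocytes were among those that rose most. The primary granule list holds the enzymes that promyelocytes pack into their first granules, and 8 of its 9 members rose and none fell, against 8.17% of all tested genes. Their median log2 fold change was 2.80.

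Elane, the neutrophil elastase gene, was at 3351 and 5593 FPKM in Bcor-/- and at 217, 812 and 343 FPKM in WT. Both Bcor-/- libraries exceeded every WT library, with a log2 fold change of 3.46 ± 0.50 (SE, adjusted p = 0.0091), or 11.0-fold. Mpo, myeloperoxidase, was at 4710.0 and 8426 FPKM against 788, 1532 and 785 FPKM, 6.41-fold higher (adjusted p = 0.0077). Prtn3, proteinase 3, reached 2614 and 3893 FPKM against 298, 697 and 376 FPKM in WT (7.44-fold). Together with Ctsg, cathepsin G, these protease and peroxidase genes each exceeded every WT level in both Bcor-/- libraries, as the call nearly requires. Ctsg stood at 1540.3 and 2252 FPKM in Bcor-/- and at 212, 411 and 217 FPKM in WT (6.97-fold, adjusted p = 0.0068). Ms4a3, a membrane protein gene that marks granulocyte-monocyte progenitors, was at 656 and 991 FPKM against 48.6, 144 and 69.3 FPKM (10.1-fold). In these genes WT replicate 2 was always the highest WT library and Bcor-/- replicate 2 always the highest of all. Hp, haptoglobin, rose 7.17-fold, Cst7, an inhibitor of cathepsins, 3.34-fold, and Srgn, the proteoglycan core that retains proteases in granules, 1.77-fold. Lyz2, lysozyme, was not called, at 390 and 335 FPKM against 305, 602 and 261 FPKM.

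Without each WT library in turn, and in a fit of all 10 LSK libraries, 8 primary granule genes were called higher. With quantile normalization 7 were called.

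Transcription factors of the granulocyte branch moved too. Of 13 myeloid transcription factors tested, 4 rose (30.8%) and 1 fell (7.69%), against 8.17% and 8.29% of all tested genes. Cebpe, which drives the switch from primary to secondary granules, was at 47.7 and 79.7 FPKM in Bcor-/- and at 3.94, 11.6 and 5.23 FPKM in WT (log2 fold change 3.10 ± 0.39 SE, adjusted p = 0.0075). Cebpa, the factor that opens the granulocyte-monocyte program, was at 44.1 and 52.7 FPKM against 16.1, 19.8 and 12.4 FPKM. Its log2 fold change was 1.55 (adjusted p = 0.0072), with no overlap between groups. Gfi1, a repressor needed for neutrophils and for stem cell quiescence, was at 80.4 and 96.5 FPKM against 20.3, 26.3 and 19.3 FPKM (3.91-fold, adjusted p = 0.0057). Cebpd rose 3.32-fold, and Runx1 fell, at 16.9 and 18.1 FPKM against 28.1, 27.7 and 24.8 FPKM, a change just past the fold threshold. Its call was lost without Bcor-/- replicate 1, WT replicate 1 or WT replicate 2. Spi1, which encodes PU.1, was 1.47-fold higher and so not called, although its adjusted p was 0.017. Cebpb was at 15.1 and 12.6 FPKM against 11.9, 10.7 and 11.0 FPKM (adjusted p = 0.16).

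**Figure D2:**
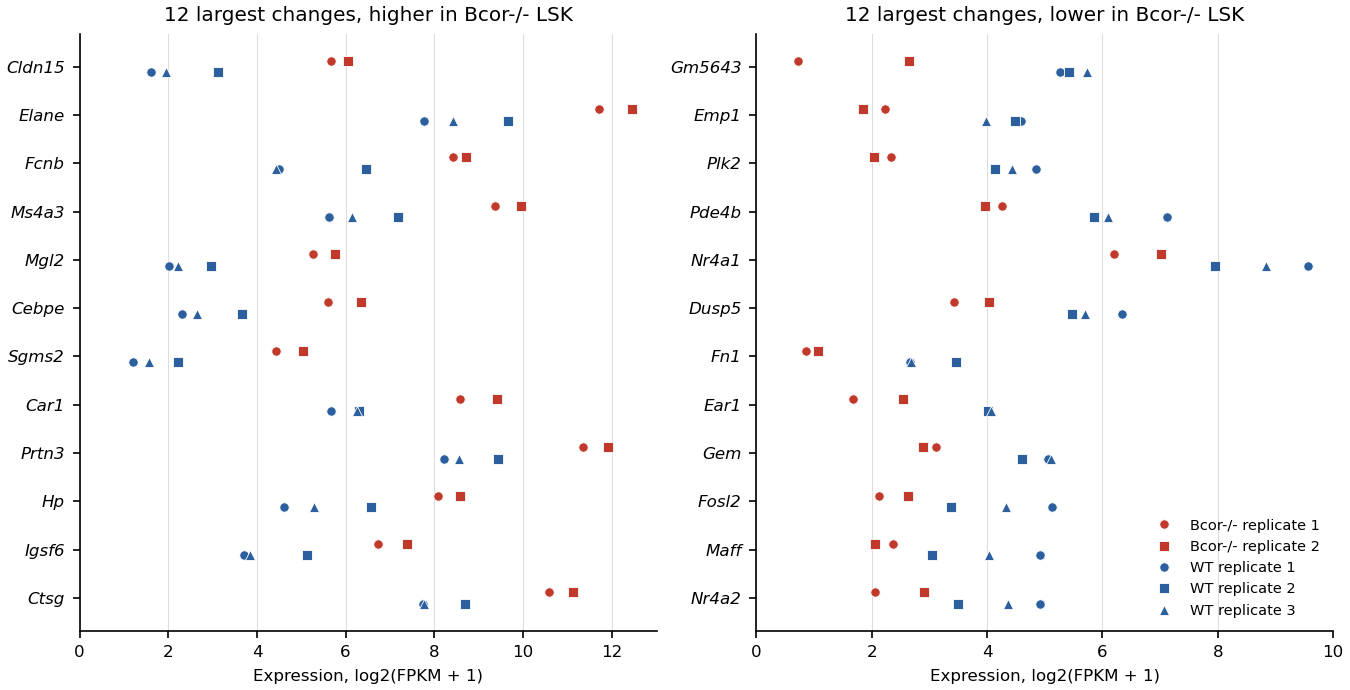
Level of the 12 genes with the largest increase and the 12 with the largest decrease in each library, in log2(FPKM + 1); red symbols are the 2 Bcor-/- libraries and blue symbols the 3 WT libraries. Groups are separate in every row by the rule that chose the genes; WT replicate 2 is the highest WT library for Elane, Fcnb and Ms4a3, and WT replicate 1 for Nr4a1 and Fosl2.

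The 12 largest increases were taken among genes that passed the adjusted p without overlap between groups. Besides Elane, Ms4a3, Cebpe, Prtn3, Hp and Ctsg, they held Fcnb, a ficolin of myeloid granules, at 340 and 421 FPKM against 21.7, 86.5 and 20.4 FPKM (10.9-fold). The largest of them was Cldn15, a claudin of tight junctions, at 49.8 and 65.5 FPKM against 2.05, 7.67 and 2.88 FPKM (12.4-fold, adjusted p = 0.007). Mgl2, a lectin receptor of macrophages and dendritic cells, rose 8.60-fold (37.2 and 53.3 FPKM against 3.05, 6.80 and 3.69 FPKM). Sgms2, a sphingomyelin synthase, rose 8.38-fold, Igsf6, an immunoglobulin superfamily receptor of myeloid cells, 7.08-fold, and Car1, a carbonic anhydrase of red cells, 7.53-fold.

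Genes of later neutrophils did not follow as a group. Of 14 late neutrophil genes tested, Fcnb rose, Retnlg fell and 12 were not called. Each direction made up 7.14% of the list, against 8.17% higher and 8.29% lower of all tested genes. S100a8, a calcium-binding alarmin subunit, was at 2796 and 2648 FPKM in Bcor-/- and at 824, 4389 and 760 FPKM in WT, so the Bcor-/- libraries lay between WT replicate 2 and the other WT libraries. The sum of the 14 genes gave the same order, at 5997 and 5724 FPKM in Bcor-/- and at 2159, 10594 and 1959 FPKM in WT. Without WT replicate 2, 6 of the genes were called higher, and 3 were called lower without WT replicate 1 or with the replicate block. Ltf, the lactoferrin gene of secondary granules, was at 45.3 and 28.7 FPKM against 40.02, 195 and 31.6 FPKM (adjusted p = 0.45). Retnlg, at 27.1 and 11.3 FPKM against 29.3, 96.5 and 45.8 FPKM, had an adjusted p of 0.075. Its call was lost without Bcor-/- replicate 2. In sorted bulk samples, more cells of a type and more RNA per cell cannot be told apart.

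Macrophage genes followed WT replicate 2 in the same way. Of 14 tested, only Vcam1, an adhesion molecule of central macrophages and stroma, was called higher (7.14% against 8.17% of all tested genes). Vcam1 was at 88.8 and 80.5 FPKM against 22.6, 60.5 and 7.35 FPKM (adjusted p = 0.09). The call was lost without either Bcor-/- library, without WT replicate 1, without the filter on low values and in the fit of all 10 LSK libraries, whereas 9 of the 14 were called higher without WT replicate 2. The complement gene C1qa was at 56.5 and 37.0 FPKM against 22.0, 61.4 and 6.93 FPKM. The summed level was 421 and 363 FPKM in Bcor-/- and 204, 472 and 86.0 FPKM in WT. The part of such cells in the granulocyte calls was not tested.

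Erythroid genes rose as well. Of 33 tested, 20 were called higher (60.6%) and 1 lower (3.03%), against 8.17% and 8.29% of all tested genes. The list had a median log2 fold change of 0.94, and 32 of the 33 lay above 0. The red cell membrane and its blood group antigens gave many of the higher calls. Rhd, a Rhesus antigen gene, was at 20.5 and 37.0 FPKM in Bcor-/- and at 1.85, 3.09 and 6.32 FPKM in WT (6.50-fold, adjusted p = 0.0093). Rhag, its partner in the membrane, was at 8.84 and 22.4 FPKM against 1.34, 2.14 and 2.71 FPKM (5.05-fold). Both genes were higher in each Bcor-/- library than in every WT library, as were 99.4% of all higher calls. Replicate 2 was the higher of the pair, as in 19 of the 20 calls and in 84.9% of all higher calls. Ermap rose 4.73-fold, Add2, encoding beta-adducin of the membrane skeleton, 4.16-fold, and Ank1, the ankyrin that anchors spectrin, 3.32-fold. Among the enzymes of heme synthesis, Cpox rose 2.46-fold, Uros 1.92-fold and Fech 1.52-fold, while Urod (1.41-fold), Ppox (1.24-fold) and Alad (1.21-fold) were not called.

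The receptor for erythropoietin was part of this set. Epor was at 10.6 and 19.1 FPKM against 2.99, 3.69 and 5.11 FPKM (3.15-fold, adjusted p = 0.011). Car1 was at 379 and 680 FPKM against 49.9, 77.6 and 76.0 FPKM. Car2, a related carbonic anhydrase, was not called, at 318 and 426 FPKM against 342, 305 and 379 FPKM. Genes that erythroblasts raise late gave few calls. Alas2, the erythroid enzyme that opens heme synthesis, was not called, at 1.72 and 1.04 FPKM against 0.541, 1.57 and 2.01 FPKM. The globin Hba-a1 was at 33.1 and 43.4 FPKM against 8.83, 24.4 and 34.6 FPKM (adjusted p = 0.21), and Hbb-b2 rose 1.77-fold (adjusted p = 0.04), with reads of near-identical globin copies possibly shared. Eng, endoglin, which stem cells also express, fell, at 29.6 and 26.9 FPKM against 50.9, 46.9 and 57.0 FPKM (adjusted p = 0.0077), a call lost in the fit of all 10 LSK libraries.

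Of 12 erythroid transcription factors, 2 rose (16.7%) and 1 fell (8.33%), against 8.17% and 8.29% of all tested genes. Klf1, which activates globin and membrane genes, was at 16.1 and 35.4 FPKM in Bcor-/- and at 1.96, 4.96 and 6.05 FPKM in WT (log2 fold change 2.32 ± 0.43 SE, adjusted p = 0.013). Gata1 was at 18.0 and 34.3 FPKM against 7.83, 12.1 and 12.9 FPKM (2.21-fold, adjusted p = 0.033). Gata2, which GATA1 replaces at shared sites as erythroid cells mature, went the other way, at 33.5 and 26.8 FPKM against 54.7, 54.1 and 74.5 FPKM (log2 fold change -0.99, adjusted p = 0.011). In each library pair across genotypes, Gata1 was higher and Gata2 lower in Bcor-/-. Bcl11a, a repressor of fetal globin and a lymphoid factor, fell 1.62-fold. Tal1, Gfi1b and Zfpm1, partners of GATA factors, overlapped between groups.

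Among the 20 erythroid genes that rose, 12 had a promoter in the RefSeq set (250 bases before to 50 after the start, build GRCm38.p6), and 4 of these 12 held AGATAA, the core motif of GATA factors, on either strand. Among all genes with a promoter, the same letters stood in 7.86% of those tested, 9.5% of those called higher and 12.1% of those called lower. They also stood in 3 of the 14 stem cell genes with a promoter that fell (21.4%). A match is a description and not a bound site. The 100 bases before the start are shown for Rhd (chr4:134864436-134864535, plus strand), Epor (chr9:21963577-21963676, minus strand) and Kel (chr6:41704326-41704425, minus strand), 3 membrane or receptor genes whose match fell within them, each read 5′ to 3′ in the direction of the gene with the match in capitals.
Rhd: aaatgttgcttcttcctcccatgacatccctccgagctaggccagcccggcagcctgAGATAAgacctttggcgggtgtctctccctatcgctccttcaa
Epor: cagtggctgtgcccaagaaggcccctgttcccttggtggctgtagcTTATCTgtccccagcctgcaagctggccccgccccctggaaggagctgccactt
Kel: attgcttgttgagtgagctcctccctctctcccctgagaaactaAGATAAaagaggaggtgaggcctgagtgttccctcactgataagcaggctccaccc

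Epor carries the motif on the other strand (TTATCT). Kel, a blood group metalloprotease gene, was at 4.69 and 10.02 FPKM against 1.22, 2.14 and 2.79 FPKM (2.66-fold, adjusted p = 0.028). In the granule list, TTGCNNAA, a C/EBP-type motif searched on both strands, stood in 2 of the 7 higher genes with a promoter. Among all genes with a promoter, the motif stood in 10% of those tested, 12.8% of those called higher and 10.7% of those called lower.

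**Figure D3:**
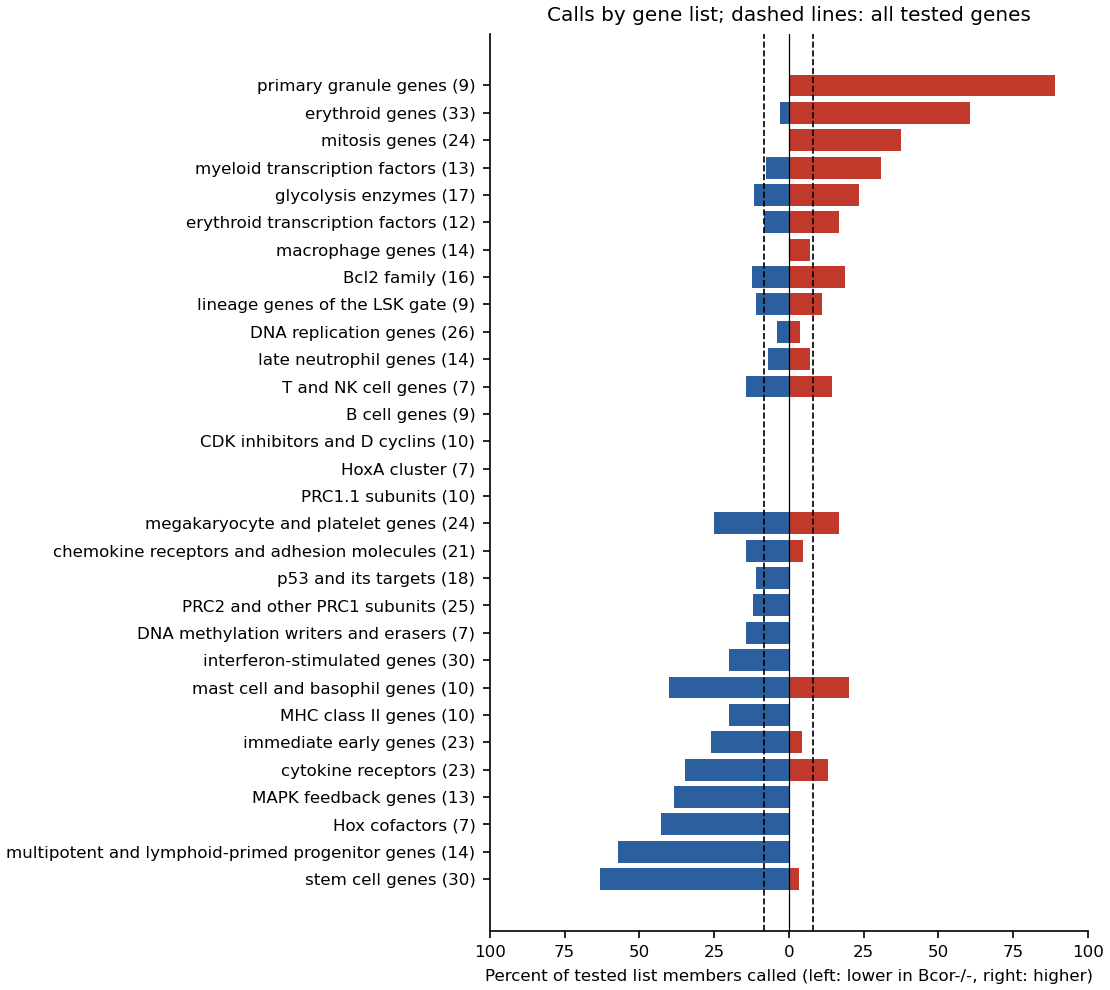
Percent of tested members of each gene list with at least 7 tested members that were called lower (blue, left) or higher (red, right) in Bcor-/- LSK cells, the number tested in brackets; dashed lines give the 8.29% lower and 8.17% higher of all tested genes. Primary granule (88.9% higher) and erythroid genes (60.6% higher) lie at one end, and stem cell (63.3% lower) and multipotent progenitor genes (57.1% lower) at the other.

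Megakaryocyte and platelet genes, which share a progenitor with the erythroid branch, moved in both directions. Of 24 tested, 4 rose (16.7%) and 6 fell (25%), against 8.17% and 8.29% of all tested genes. Genes of platelet proteins were on both sides. Pf4, a platelet chemokine, was at 86.8 and 66.6 FPKM against 34.9, 50.8 and 43.3 FPKM (1.77-fold, adjusted p = 0.02). Gp5, a subunit of the von Willebrand factor receptor, was at 8.35 and 6.73 FPKM against 3.29, 4.42 and 4.18 FPKM. For the 4 that rose, unlike most calls, Bcor-/- replicate 1 was the higher library. Clec1b and Gp1bb had adjusted p values of 0.076 and 0.086. The 6 that fell include Slamf1, which stem cells also express. Selp, P-selectin, was at 6.17 and 3.20 FPKM against 12.5, 10.6 and 15.3 FPKM (2.49-fold lower), and Thbs1, thrombospondin, at 0.511 and 0.438 FPKM against 2.71, 2.95 and 2.10 FPKM. The 4 higher calls became 2 without Bcor-/- replicate 1 and 1 in the fit of all 10 LSK libraries, and the 6 lower calls became 3 in that fit.

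Stem cell genes fell. Of 30 listed and tested, 19 were called lower (63.3%) and 1, Gfi1, higher (3.33%), against 8.29% and 8.17% of all tested genes. The list had a median log2 fold change of -0.81, and 28 of the 30 lay below 0. Mecom, a transcription factor required for stem cell maintenance, was at 5.17 and 4.19 FPKM in Bcor-/- and at 11.8, 9.97 and 14.8 FPKM in WT (log2 fold change -1.20 ± 0.19 SE, adjusted p = 0.0099). Hlf, a factor that marks long-term stem cells, was at 39.1 and 28.0 FPKM against 67.6, 57.1 and 80.5 FPKM (2.01-fold lower, adjusted p = 0.013). Meis1, the cofactor of Hox proteins, was at 34.7 and 25.6 FPKM against 70.5, 49.4 and 58.1 FPKM (1.94-fold lower). All 19 were lower in both Bcor-/- libraries than in any WT library, as were 99.1% of all lower calls. For 18 replicate 2 was the lower of the pair, against 80.9% of all lower calls.

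Surface receptors of stem cells and their ligands were among them. Robo4 was at 5.93 and 3.31 FPKM against 17.0, 12.3 and 13.1 FPKM (2.75-fold lower, adjusted p = 0.01). Slamf1, which encodes the stem cell marker CD150, was at 0.874 and 0.346 FPKM against 2.43, 3.39 and 3.94 FPKM (2.65-fold lower on the log2(FPKM + 1) scale). Both encode a protein on the cell surface. Tek, the TIE2 receptor, fell 2.38-fold and Angpt1, its ligand, 2.34-fold. Cd34 was at 391 and 265 FPKM against 649.7, 551 and 548 FPKM (1.81-fold lower, adjusted p = 0.017). Not called were Procr, at 22.6 and 14.5 FPKM against 28.8, 17.2 and 37.6 FPKM, and Esam, Mllt3, Prdm16 and Kit. Without Bcor-/- replicate 2 the stem cell list gave 12 lower calls, and in the fit of all 10 LSK libraries 14.

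Genes of multipotent and lymphoid-primed progenitors fell in 8 of 14 tested cases, 57.1% against 8.29% of all tested genes. None rose with all 5 libraries. Flt3, the cytokine receptor that marks these progenitors, was at 135 and 85.8 FPKM in Bcor-/- and at 247, 213 and 197 FPKM in WT (2.02-fold lower, adjusted p = 0.014). Dntt, the terminal transferase of early lymphoid cells, was at 128 and 65.2 FPKM against 309, 333 and 220 FPKM (3.07-fold lower, adjusted p = 0.012). Satb1, a chromatin organizer of lymphoid priming, was at 17.0 and 15.1 FPKM against 39.8, 35.4 and 28.5 FPKM (adjusted p = 0.0091). Notch1 fell 1.75-fold, and Il7r, the receptor of lymphoid progenitors, 1.91-fold (adjusted p = 0.071). Cd27 and Cd48 fell by values just past the fold threshold. The fit of all 10 LSK libraries called 4 of these genes, and the fit without Bcor-/- replicate 2 called 5.

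Among markers of other cell types, calls were unevenly spread. Of 3 endothelial and stromal genes above the filter, Emcn (4.86 and 5.06 FPKM against 17.0, 17.5 and 16.0 FPKM), which stem cells also express, and Cxcl12 fell. They were 66.7% of the 3, against 8.29% of all tested genes. The Cxcl12 call was lost in the fit of all 10 LSK libraries. None of 9 B cell genes tested was called, with Vpreb1 at 1.98 and 3.41 FPKM against 4.80, 16.4 and 3.26 FPKM (adjusted p = 0.2). The count was 2 higher without Bcor-/- replicate 2, 1 lower without replicate 1, 2 lower without WT replicate 3 and 3 lower with the replicate block. WT replicate 2 was again the highest for Vpreb1. Of 7 T and NK cell genes, Nkg7, a granule protein also made by myeloid progenitors, rose (448 and 615 FPKM against 214, 228 and 207 FPKM) and Lck fell (adjusted p = 0.021), a call lost without Bcor-/- replicate 2. Nkg7 and Lck were each 14.3% of the 7, against 8.17% higher and 8.29% lower of all tested genes. All 10 MHC class II genes had a log2 fold change below 0. H2-Oa (2.28-fold lower) and H2-Ob (1.95-fold lower) were called, 20% of the list against 8.29% of all tested genes. That count was 6 without Bcor-/- replicate 1 or WT replicate 3, 3 without WT replicate 1 and 1 without Bcor-/- replicate 2. Of the 10 mast cell and basophil genes, Hdc and Fcer1g rose and Fcer1a, Mcpt8, Cpa3 and Ms4a2 fell, with 2 lower calls without Bcor-/- replicate 1 and 6 without replicate 2. With all 5 libraries the higher calls were 20% and the lower calls 40% of that list, against 8.17% and 8.29% of all tested genes. Hdc, histidine decarboxylase, was at 68.1 and 105 FPKM against 6.43, 20.1 and 11.5 FPKM (6.83-fold).

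**Figure D4:**
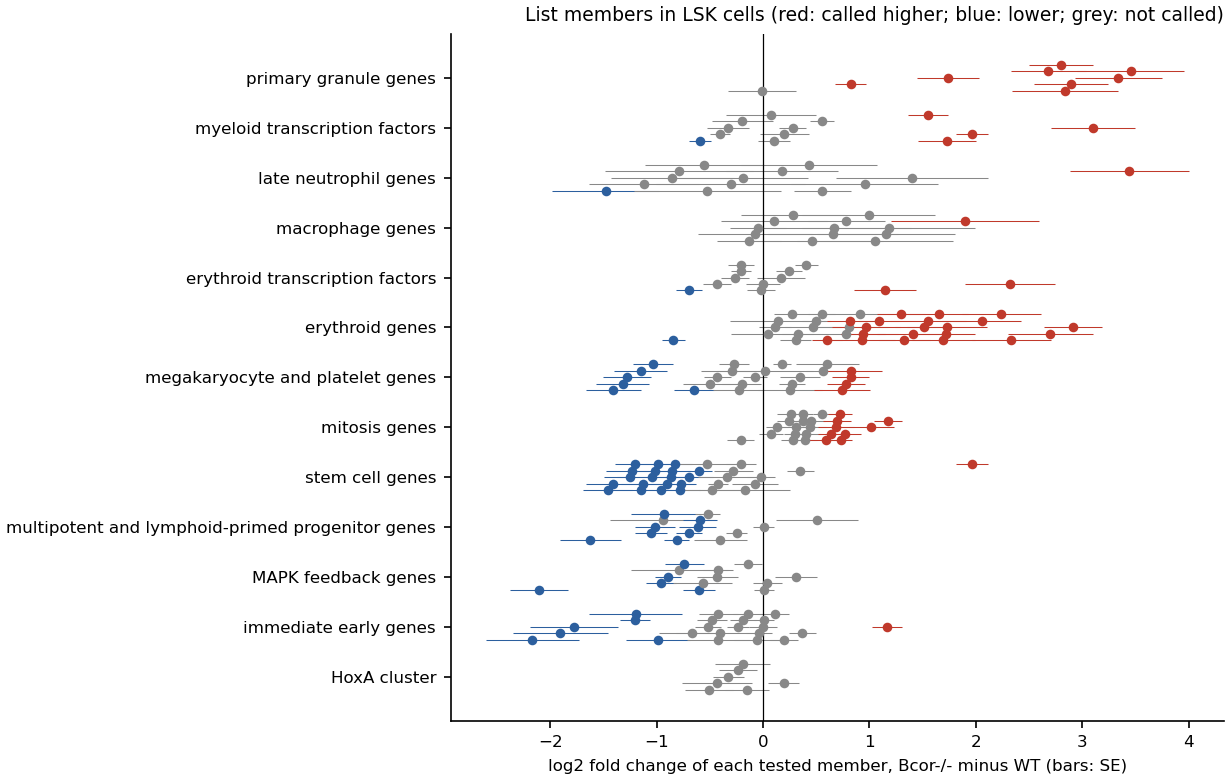
Log2 fold change (Bcor-/- minus WT) of every tested member of 13 gene lists, with its SE; red points were called higher, blue lower and grey not called. Primary granule genes lie between -0.01 (Lyz2) and 3.46 (Elane), and stem cell genes lie mostly below 0 with Gfi1 alone on the far right. All 7 HoxA genes lie between -0.51 and 0.20 and were not called.

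Receptors for cytokines moved in both directions. Of 23 cytokine receptors, 3 rose (13%) and 8 fell (34.8%), against 8.17% and 8.29% of all tested genes. Without WT replicate 2 the higher calls became 5. Csf2ra, the GM-CSF receptor alpha chain, was at 34.8 and 43.0 FPKM against 13.3, 18.2 and 13.3 FPKM (2.52-fold, adjusted p = 0.0074). Ifngr1, a chain of the interferon gamma receptor, was at 171 and 232 FPKM against 76.6, 96.8 and 74.3 FPKM (2.41-fold). Epor was the third. Il18r1 had the largest decrease, at 2.43 and 2.47 FPKM against 8.47, 7.50 and 8.89 FPKM (2.69-fold lower, adjusted p = 0.0066). Il1r1 fell 1.75-fold and Il2rg, the common gamma chain, 1.60-fold. Of 21 chemokine receptors and adhesion molecules, Cxcr4, which retains cells in the marrow, rose (88.8 and 96.5 FPKM against 38.1, 59.9 and 61.0 FPKM). S1pr1, which leads cells out into the blood, fell (5.21 and 3.66 FPKM against 18.97, 10.9 and 11.9 FPKM, adjusted p = 0.012), as did Ccr7 (adjusted p = 0.058) and Cxcr2 (adjusted p = 0.075). The higher call was 4.76% and the lower calls 14.3% of this list, against 8.17% and 8.29% of all tested genes. The Cxcr4 call was lost in the fit of all 10 LSK libraries. The 3 lower calls of this list became 5 and 1 without Bcor-/- replicate 1 or 2, its 1 higher call became 4 without WT replicate 2, and the 8 lower cytokine receptors became 5 without Bcor-/- replicate 2.

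Signal-induced genes gave several of the largest decreases. Nr4a1, an orphan nuclear receptor induced within minutes of stimulation, was at 72.9 and 129 FPKM in Bcor-/- and at 754, 248 and 454 FPKM in WT (4.49-fold lower, adjusted p = 0.017). Fosl2, an AP-1 subunit, was at 3.36 and 5.17 FPKM against 33.8, 9.42 and 19.2 FPKM (3.74-fold lower). Nr4a2 was at 3.14 and 6.50 FPKM against 29.2, 10.3 and 19.6 FPKM (3.43-fold lower). In all of these WT replicate 1 was the highest library. Over the immediate early list, 6 of 23 genes fell (26.1%) and Gadd45b rose (4.35%), against 8.29% and 8.17% of all tested genes. Not called were 16, Fos and Jun among them. Fos was at 1336 and 1216 FPKM against 1582, 1243 and 1407 FPKM. The summed level was 4286 and 4059 FPKM in Bcor-/- and 6265, 4486 and 5105 FPKM in WT. The fit of all 10 LSK libraries called no member of this list, and the fits without 1 library called 4 to 9 lower.

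Other genes fell as far. Emp1, a membrane protein gene, was at 3.72 and 2.62 FPKM against 23.1, 21.3 and 14.7 FPKM (4.92-fold lower, adjusted p = 0.0057). Plk2, a stress-induced kinase, was at 4.06 and 3.09 FPKM against 27.9, 16.5 and 20.7 FPKM (4.89-fold lower). Gem, a small GTPase, was at 7.71 and 6.40 FPKM against 32.2, 23.4 and 33.4 FPKM (3.78-fold lower). For Emp1, Plk2 and Gem every WT library was more than double every Bcor-/- library. Pde4b, a cAMP phosphodiesterase, was at 18.3 and 14.7 FPKM against 138, 56.9 and 67.7 FPKM (4.73-fold lower). Fn1, fibronectin, fell 3.92-fold, and Ear1, an eosinophil ribonuclease gene with near-identical copies, 3.80-fold. Maff, a small Maf factor, was at 4.17 and 3.17 FPKM against 29.2, 7.30 and 15.4 FPKM (3.45-fold lower), and its call was lost in the fit of all 10 LSK libraries. The largest decrease of all was in Gm5643, a transcribed pseudogene on the X chromosome, at 0.641 and 5.26 FPKM against 37.5, 41.7 and 52.2 FPKM (log2 fold change -3.79 ± 0.49 SE). Reads of a pseudogene can be shared with its parent gene, so this value is uncertain, and it was -2.83 without Bcor-/- replicate 1 and -4.76 without replicate 2.

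Feedback genes of MAPK signalling, which ERK induces and which then restrain it, fell in 5 of 13 cases. That was 38.5%, against 8.29% of all tested genes. Dusp5, a nuclear ERK phosphatase, was at 9.80 and 15.3 FPKM against 80.4, 43.4 and 50.8 FPKM (4.30-fold lower, adjusted p = 0.0076). Dusp2 was at 78.5 and 95.5 FPKM against 197, 152 and 161 FPKM (1.94-fold lower). Spry1 was at 12.8 and 10.8 FPKM against 24.4, 21.0 and 22.7 FPKM (1.85-fold lower). Spred1 fell 1.52-fold and Spred3 1.67-fold. No member rose. Of 30 interferon-stimulated genes, 6 fell, 20% against 8.29% of all tested genes. Among the 6 were Oas2 (2.29 and 2.24 FPKM against 6.77, 4.03 and 5.83 FPKM, adjusted p = 0.024) and Rtp4. That count was 14 without Bcor-/- replicate 1 and 2 without replicate 2, so it rested on which Bcor-/- library was used.

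Mitosis genes rose in 9 of 24 cases, 37.5% against 8.17% of all tested genes, and 23 of the 24 lay above 0. Ube2c, the ubiquitin-conjugating enzyme of the anaphase-promoting complex, was at 175 and 207 FPKM against 77.4, 97.6 and 77.4 FPKM (2.26-fold, adjusted p = 0.0072). Plk1, the mitotic kinase, was at 52.3 and 76.9 FPKM against 26.7, 39.4 and 27.9 FPKM (2.02-fold). Cdk1 rose 1.65-fold and Ccnb1, its cyclin, 1.71-fold. DNA replication genes did not move as a group, with Ccne1 higher, Ung lower and 24 of 26 not called. Each call was 3.85% of the list, against 8.17% higher and 8.29% lower of all tested genes. Both calls were lost without Bcor-/- replicate 2. None of 10 CDK inhibitors and D cyclins was called, and 1 was called lower without WT replicate 2 or with the replicate block. Cdkn2a was below the filter. Without Bcor-/- replicate 2, 6 mitosis genes were called. Of 17 glycolysis enzymes, 4 rose (23.5%) and 2 fell (11.8%), against 8.17% and 8.29% of all tested genes. Pgam1 (1.74-fold) and Gpi1 (1.58-fold) were among the 4 that rose. The 4 became 1 without Bcor-/- replicate 2 and 2 without WT replicate 3 or with quantile normalization, and Gpi1 lost its call without Bcor-/- replicate 2 and with quantile normalization. Of 16 Bcl2 family genes, 3 rose (18.8% against 8.17% of all tested genes), 2 fell (12.5% against 8.29%) and 11 were not called. The proapoptotic genes Bid (1.72-fold), Bad and Bak1 rose. Bcl2l11, which encodes BIM, fell (1.94-fold lower, adjusted p = 0.023), as did Bok. The 3 higher calls became 1 without Bcor-/- replicate 2, without WT replicate 1 or with quantile normalization, and Bad was among those lost. Of 18 p53 genes, Tnfrsf10b and Sesn1 fell (11.1% against 8.29% of all tested genes) and none rose. Sesn1 lost its call without Bcor-/- replicate 2.

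Within Polycomb itself, none of the 10 PRC1.1 subunits was called, and 1 was called higher without Bcor-/- replicate 1, without WT replicate 1, without WT replicate 3, with quantile normalization or with the replicate block. Bcorl1, the homologue of Bcor, was at 7.05 and 9.16 FPKM against 5.29, 4.15 and 5.81 FPKM, a log2 fold change of 0.58 (adjusted p = 0.063) that lay just under the fold threshold. Ring1 was at 20.1 and 18.1 FPKM against 13.6, 15.6 and 13.1 FPKM (1.33-fold, adjusted p = 0.049). Kdm2b, Pcgf1, Rybp and Usp7 had adjusted p values of 0.15 to 0.83. Of 25 other Polycomb subunits, Cbx2, Phc1 and Cbx6 fell, by 0.74, 0.68 and 0.61 on the log2 scale, 12% of the list against 8.29% of all genes. Of the DNA methylation genes, Dnmt3b fell (21.3 and 16.0 FPKM against 34.3, 28.4 and 30.3 FPKM, adjusted p = 0.017). Without Bcor-/- replicate 2 none of these 4 genes was called.

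Hox genes, known targets of PRC1.1, were not called in LSK cells with all 5 libraries. All 7 HoxA genes that passed the filter had log2 fold changes between -0.51 and 0.20, and the 3 HoxB genes tested were not called either. Without Bcor-/- replicate 2 or WT replicate 2, 1 HoxA gene was called lower, and without WT replicate 1 or 2, 1 HoxB gene was called higher. Hoxa9 was at 22.9 and 22.4 FPKM in Bcor-/- and at 24.6, 27.7 and 34.4 FPKM in WT (log2 fold change -0.33, adjusted p = 0.15). Of 7 Hox cofactors 3 fell, Meis1 and Pbx4 among them, and 1 was called without Bcor-/- replicate 2. With all 5 libraries the cofactors that fell were 42.9% of those tested, against 8.29% of all tested genes. Of 4 tested genes of the fetal stem cell program, 2 rose, where 8.17% of all tested genes were called higher. Lin28a, an RNA-binding protein gene that is usually silent in adult stem cells, was at 5.06 and 6.58 FPKM against 0.577, 2.18 and 0.366 FPKM (3.57-fold higher, adjusted p = 0.017). Arid3a, a DNA-binding factor it is linked to, was at 11.4 and 15.4 FPKM against 3.38, 7.62 and 4.62 FPKM (2.39-fold, adjusted p = 0.024). Hmga2 (log2 fold change -0.12) and Igf2bp2 (0.36) were not called, and Lin28b and Igf2bp3 were below the filter. The 2 higher calls were made again in each fit without 1 library.

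In MEP libraries of the same mice, Bcor itself was at 19.5 and 22.4 FPKM in those labelled Bcor-/- and at 26.9, 21.3 and 22.4 FPKM in WT (log2 fold change -0.15, adjusted p = 0.7). The groups overlapped, so the whole-transcript value does not check the deletion there. The MEP comparison gave 224 of 10505 genes higher (2.13%) and 234 lower (2.23%), 4.36% in all. With the adjusted p, 14 were higher (0.133%) and 24 lower (0.228%), 0.362% in all. The difference between the LSK effect and the MEP effect, taken within each mouse, passed an adjusted p of 0.05 for 454 of 10312 genes (4.40%). That number depended on the libraries, at 0 and 2 without Bcor-/- replicate 1 or 2, 20 without WT replicate 1, 257 without WT replicate 2 and 741 without WT replicate 3. It was also 23 with a pseudocount of 0.1.

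The Bcor-/- minus WT difference of some Hox genes, singled out here after their values were seen, differed between the 2 cell types. Of 4 HoxA genes tested in both, the difference of effects passed for 3, and it did not pass for Hoxa7 (-1.23, adjusted p = 0.068) or for Hoxb4, the 1 HoxB gene tested (-0.37, adjusted p = 0.21). Hoxa9 in MEP was at 12.2 and 14.2 FPKM in Bcor-/- and at 3.38, 3.17 and 6.38 FPKM in WT, and Hoxa10 was at 6.51 and 7.97 FPKM against 1.66, 0.719 and 1.33 FPKM. Both separated the genotypes in MEP and not, or barely, in LSK. The LSK effect was lower than the MEP effect by -2.05 ± 0.27 (SE) for Hoxa10 (adjusted p = 0.027) and by -1.79 ± 0.26 for Hoxa9 (adjusted p = 0.03) on the log2 scale. For Hoxa10 the difference ran from -2.69 to -1.85 over all alternatives with adjusted p from 0.024 to 0.25, and for Hoxa9 from -1.997 to -1.66 with adjusted p from 0.0093 to 0.25. Gata2, lower in Bcor-/- LSK, was at 41.6 and 51.4 FPKM in Bcor-/- MEP and at 34.2, 18.6 and 49.2 FPKM in WT MEP, with overlap between groups. Its difference of effects was -1.52 ± 0.30 (SE, adjusted p = 0.04), with adjusted p from 0.012 to 0.28 over all alternatives. Klf1 and Gata1 were at 189 and 203 FPKM and at 185 and 195 FPKM in Bcor-/- MEP, where WT ranged from 144 to 192 and from 170.2 to 225 FPKM. Their differences of effects had adjusted p values of 0.15 and 0.2.

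**Figure D5:**
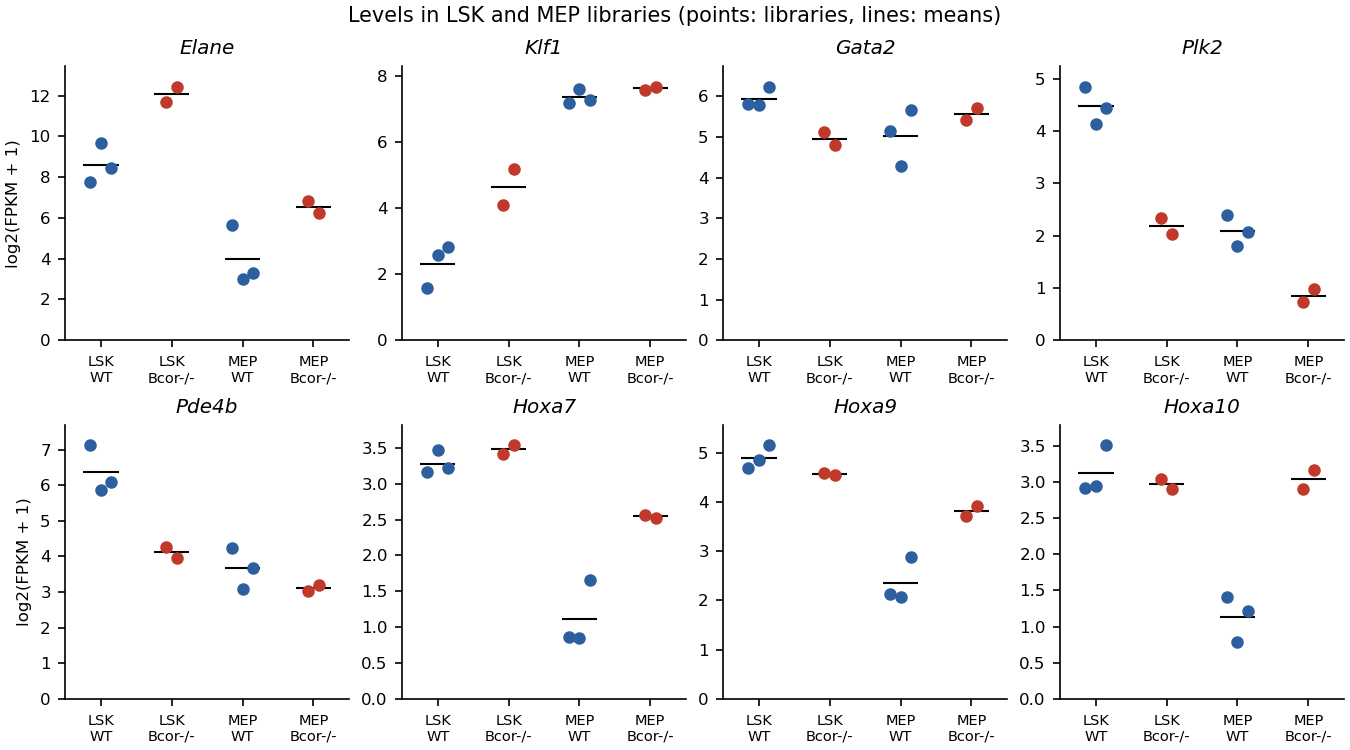
Level of 8 genes in log2(FPKM + 1) in LSK and MEP libraries of WT (blue) and Bcor-/- (red) mice, each point a library and each line a group mean; the LSK and MEP tables may have been scaled apart, so genotypes are compared within a cell type. Hoxa9 and Hoxa10 separate the genotypes in MEP, Klf1 in LSK.

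The 6 largest LSK changes in each direction were set beside MEP too. They were chosen for their size in LSK, which favours a larger effect there, so their differences are given as a description. The difference of effects was -2.86 for Gm5643, from -3.64 to -2.07 over all alternatives, and -1.67 for Pde4b, from -1.90 to -1.45. Cldn15 and Mgl2 were below the filter in MEP. Elane was at 112.5 and 74.6 FPKM in Bcor-/- MEP against 49.4, 7.08 and 8.86 FPKM in WT, and its difference of effects was 0.92 ± 2.45 (SE). Plk2 was at 0.656 and 0.973 FPKM against 4.23, 2.503 and 3.17 FPKM in MEP. Its difference of effects was -1.06, from -1.34 to -0.66 over all alternatives. The log2(FPKM + 1) scale understates the change at MEP levels this low. Of 33 erythroid genes tested in both cell types, the effect in LSK was higher for 2 and lower for 1, and of 24 mitosis genes it was higher for 5, where 4.40% of all genes passed in either direction.

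The LSK libraries labelled Dnmt3a-/-, the other single mutant, had Dnmt3a at 16.9, 14.0 and 11.3 FPKM, against 13.9 and 14.1 FPKM in Bcor-/- (log2 difference 0.01, adjusted p = 0.96). The study describes the deletion in these mice as partial. Set against these libraries, Bcor-/- LSK cells had 1197 of 11601 genes higher (10.3%) and 1187 lower (10.2%). With the adjusted p these were 9.79% and 9.05%. This comparison shares the Bcor-/- libraries with that against WT, by which the genes named here were chosen, so their values are set side by side as a description. Elane in Dnmt3a-/- was at 222, 437 and 471 FPKM, and all 9 primary granule genes were higher in Bcor-/-. So were 10 of 14 late neutrophil genes and 12 of 14 macrophage genes, and the part of such cells in this comparison was not tested. Klf1 was at 5.01, 3.94 and 6.84 FPKM in Dnmt3a-/- (log2 difference 2.02, adjusted p = 0.0017), with 21 of 33 erythroid genes higher in Bcor-/-. Of the stem cell genes 17 of 30 were lower in Bcor-/-. Nr4a1 was at 537, 403 and 649 FPKM in Dnmt3a-/-, and 19 of 23 immediate early genes were lower in Bcor-/-. Gm5643 was at 54.9, 54.0 and 89.8 FPKM.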

How the data were processed

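Poly-A RNA of sorted LSK and MEP cells was sequenced from Illumina libraries. The authors deposited FPKM per gene in 1 table per cell type. Per the labels, their processing notes name STAR 2.5.1b, SAMtools 1.9, Cufflinks 2.2.1 and build mm9. Annotation, strand use and scaling are not given in the sources used here, and without counts the absolute depth is unknown. Columns were matched to samples by name. FPKM values were taken as log2(FPKM + 1), and genes whose average over the 5 libraries reached 1 FPKM were fitted with limma 3.58.1 (R 4.3.3, two-sided, mean-variance trend), with Benjamini-Hochberg adjustment over all tested genes. With 2 against 3 libraries an exact permutation test of a single gene cannot go below p = 0.1, and p-values measure the spread between these libraries. Fold changes are on the log2(FPKM + 1) scale, which understates changes of low genes. The difference of effects was tested on the LSK minus MEP value of each mouse. The members and lists were chosen with earlier results of these data known. Named are the deleted genes, the 12 largest non-overlapping changes per direction and up to 2 called genes per direction and list. Lists without a call gave 2 uncalled genes each, and some regulators and surface markers were chosen besides. Others were named after their values were seen. The fit was tested on simulated data. Alternatives were the pseudocount, filter, scaling, libraries, replicate block, trend, threshold and leaving out each library. Promoters came from RefSeq. A few list members are not reported here.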

Additional observations from a re-analysis of the deposited data

Results flagged for a closer look

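The effect of Bcor loss differed between LSK and MEP cells for 454 genes at an adjusted p under 0.05 in limma, a tested difference between cell types. That count depended on the processing and the libraries, and moved beyond 1.5 times in 8 of 9 alternatives, as given below. The same test passed for 5 genes whose difference of effects is given above. The LSK effect minus the MEP effect was -2.86 for Gm5643 (adjusted p = 0.032), -2.05 for Hoxa10 (adjusted p = 0.027), -1.79 for Hoxa9 (adjusted p = 0.03), -1.52 for Gata2 (adjusted p = 0.04) and -1.67 for Pde4b (adjusted p = 0.034). Gm5643 and Pde4b were chosen for a large change in LSK, which favours such a difference. Hoxa9 and Hoxa10 were singled out after their values were seen, so their adjusted p values are given as a description. For Gata2 the MEP groups overlapped, while the Hox genes were higher in Bcor-/- MEP than in WT MEP without a call in LSK. Groups of 2 and 3 libraries were too small to be searched for single outlying samples.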

How the results depend on the processing

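The counts of higher and lower genes stayed within 1.5 times of 948 and 961 in 15 and 13 of 16 alternatives. A fold change over 2 gave 363 higher and 225 lower genes, and a filter of 5 FPKM gave 615 lower. Leaving out each library gave 734 to 1136 higher and 594 to 1267 lower genes. The number of genes whose Bcor effect differs between LSK and MEP moved in 8 of 9 alternatives, to 23 with a pseudocount of 0.1, 802 with a filter of 5 FPKM, 277 with quantile normalization and 0 to 741 without single libraries, and was 533 with a replicate block. With the replicate number as a block (replicate block), 980 genes were higher and 952 lower and 88.3% of the reported calls were made again. Deviations of same-numbered libraries correlated at -0.0455 and -0.0159. With 2 Bcor-/- libraries the deviations within that group mirror each other, so these values cannot show whether the numbers pair the LSK mice. The comparison with Dnmt3a-/- gave 1960 to 3056 genes without single libraries. The named-gene rule gave 104 genes that were run under the alternatives, and other genes in the text were not. Of the 88 called among them, 46 were called in every alternative that kept them, 42 lost the call in at least 1, and none changed sign. Signs changed for some uncalled genes, of which Cd79a was called higher without Bcor-/- replicate 2. Without single libraries the log2 fold change ran from -0.72 to 1.82 for Cd79a, -0.37 to 0.26 for Cd79b, -0.10 to 0.068 for Eif2s3y, -0.25 to 0.045 for Hoxa10, -0.11 to 0.0087 for Hoxb3, -0.10 to 0.039 for Skp1a and -0.19 to 0.016 for Usp7, and the LSK minus MEP effect of Elane from -0.34 to 1.93. With quantile normalization the log2 fold change of Eif2s3y was -0.091 and the log2 fold change of Hoxb3 was 0.037. With the block the log2 fold change of Hoxa10 was 0.045 and that of Hoxb3 0.0087. The causes were not tested.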
